A study of Mus musculus with 12 samples.

Results

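The genes described here are 10 that encode RNA-binding proteins of neural splicing and of the neuronal ELAV family: Ptbp1, Ptbp2, Nova1, Nova2, Rbfox2, Srrm4, Elavl2, Elavl3, Elavl4 and Celf4. They were taken by symbol from a named list, out of 54356 genes with at least 1 matched transcript. Estimated reads were summed over each gene's transcripts, and Ptbp2 was also followed transcript by transcript. The study sequenced mRNA of mouse primary neural stem cells in 12 libraries, 3 in each of 4 groups. The groups are wild-type (WT) cells at 3 h, Chd5-/- cells at 3 h, WT cells at 48 h and Chd5-/- cells at 48 h. All cells had first grown in DMEM/F-12 with N-2, BSA, antibiotics and the mitogens EGF and FGF2. The time counts from the change to neurobasal medium with B-27, BSA, L-Glutamine and antibiotics, which holds no mitogen in the labels' description. Chd5 encodes a chromatin remodelling protein. The labels name neither the deleted part of Chd5, nor the age of the animals, nor whether the 3 libraries of a group came from separate animals or cultures, so the p-values measure only the spread between these libraries.

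PTBP1 is an RNA-binding protein that keeps many neural exons out of mRNA in non-neuronal and progenitor cells. Its paralogue PTBP2 takes its place as neurons form, and PTBP1 itself limits PTBP2 by favouring the skipping of Ptbp2 exon 10, which leaves an mRNA open to nonsense-mediated decay. SRRM4 promotes the inclusion of neural microexons, the NOVA and RBFOX proteins place neuronal exons through YCAY and GCAUG motifs, and CELF4 acts on splicing, stability and translation of mRNA in excitatory neurons. ELAVL2, ELAVL3 and ELAVL4, known as HuB, HuC and HuD, bind U-rich stretches of neuronal mRNA and regulate its splicing, stability and translation.

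The Ptbp2 switch between a coding and a decaying mRNA rests on 1 short exon. Ptbp2 lies at chr3:119718742-119784466 on the minus strand (GRCm38), and its full-length coding transcript Ptbp2-201 has 14 exons. Exon 10, at chr3:119724612-119724645, is 34 bases long, which leaves a remainder of 1 base when divided by 3. The first line shows the last 30 bases of exon 9, exon 10 in capitals and the first 30 bases of exon 11, from chr3:119724157-119726095. The second line shows the same junction without exon 10, with the in-frame stop codon in capitals.
Ptbp2-201, exon 10 included: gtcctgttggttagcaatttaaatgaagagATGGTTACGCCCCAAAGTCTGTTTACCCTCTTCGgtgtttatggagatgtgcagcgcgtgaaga
Ptbp2-208 and Ptbp2-206, exon 10 skipped: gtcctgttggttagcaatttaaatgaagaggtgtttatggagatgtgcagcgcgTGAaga
In the skipped form the reading frame meets the stop codon 24 bases after the junction, and that stop lies 361 bases before the last exon junction of Ptbp2-208. The open reading frame has 356 codons before its stop in Ptbp2-208, against 532 in Ptbp2-201. The annotation lists Ptbp2-206 and Ptbp2-208 as targets of nonsense-mediated decay.

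Depth ranged from 14.11 to 18.71 M estimated reads per library. Chd5 mRNA stood at 5.25 to 7.06 CPM (counts scaled to the library size, per M reads) in the 3 libraries labelled Chd5-/- at 3 h and at 3.54 to 4.66 CPM in WT at 3 h, so its level does not separate the genotypes in the direction of the label at that time. At 48 h the level was 2.96 to 5.70 CPM in the libraries labelled Chd5-/- and 5.28 to 7.15 CPM in WT. Markers of neural stem cells (7 genes, Sox2 and Nes among them) summed to 2030 to 8470 CPM in every library, while those of microglia and endothelial cells summed to at most 2.43 and 2.40 CPM. Markers of fibroblasts and smooth muscle summed to 573 to 606 CPM in Chd5-/- at 3 h, nearly all of it Acta2, and to 7.25 to 16.4 CPM elsewhere. In 3 libraries the profile stood apart from their group. In WT 3 h replicate 1, 86.4% of Ptbp1 reads were assigned to Ptbp1-213, a retained-intron transcript, against 2.04% to 13.2% in the other libraries. In WT 48 h replicate 2 and Chd5-/- 48 h replicate 2, markers of cycling cells (8 genes) summed to 1880 and 1730 CPM, against 109 to 121 CPM in the other 48 h libraries and 1590 to 2990 CPM at 3 h. The members' results were computed on all 12 libraries and again without these 3, which were picked after the values were seen. Markers of astrocytes summed to 430 to 859 CPM at 3 h and to 2420 to 3670 CPM at 48 h, other than in the replicate 2 libraries with 490 and 1380 CPM, and their part in the differences over time was not tested.

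As among all tested genes, more of these genes passed the test over time than between genotypes. Genes were tested in edgeR's quasi-likelihood test on all 12 libraries with Benjamini-Hochberg adjustment over 16043 genes, and passed at an adjusted p under 0.05. Of the 10 genes, 9 entered the test, and Srrm4 had too few reads. Between 3 h and 48 h in WT, 2 of 9 passed, Nova1 higher and Nova2 lower, where 22.9% of all tested genes passed (12.7% higher, 10.1% lower). In Chd5-/- cells over time, 4 of 9 passed, Nova1 higher and Ptbp1, Nova2 and Celf4 lower, where 22.1% of all genes passed (14.1% higher, 8.03% lower). Chd5-/- cells differed from WT at 3 h in 1 of 9, Celf4, which was higher, where 6.71% of all genes passed (3.24% higher, 3.48% lower). At 48 h 0 of 9 passed between genotypes in edgeR, where 2.74% of all genes passed, and 0 of 9 had an unadjusted p under 0.05. DESeq2 also called 0 of them, against 5.73% of all genes, and edgeR with the replicate number as a block and only the 48 h groups called 0, against 8.82%, with 3 of 9 (Ptbp1, Nova1 and Elavl3) at an unadjusted p under 0.05. In the genotype by time interaction edgeR called 0 of 9, against 0.231% of all genes, with 2 of 9 at an unadjusted p under 0.05. DESeq2 called 0 there, against 2.40% of all genes.

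With the 3 libraries that stand apart left out, WT at 3 h and both genotypes at 48 h had 2 libraries each, and 16489 genes were tested. Since these libraries were left out for their distance from their groups, the spread that remained was small, and large shares of all genes passed. In WT over time, 9 of 10 members passed, 5 higher and 4 lower, where 76.0% of all genes passed (37.6% higher, 38.4% lower). In Chd5-/- over time, 8 passed, 2 higher and 6 lower, where 79.0% passed (38.9% higher, 40.1% lower). Between genotypes 7 passed at 3 h, 6 higher and 1 lower, where 52.5% of all genes passed (27.2% higher, 25.3% lower). At 48 h between genotypes 6 passed, 2 higher and 4 lower, where 47.2% passed (25.6% higher, 21.6% lower). The interaction called 6, 1 positive and 5 negative, where 40.4% of all genes passed (19.3% positive, 21.1% negative). The median log2 difference over the 9 tested members was 0.61 for Chd5-/- against WT at 3 h, beside -0.02 over all genes, and 0.30 over the 10 members in the smaller set of libraries.

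**Figure D1:**
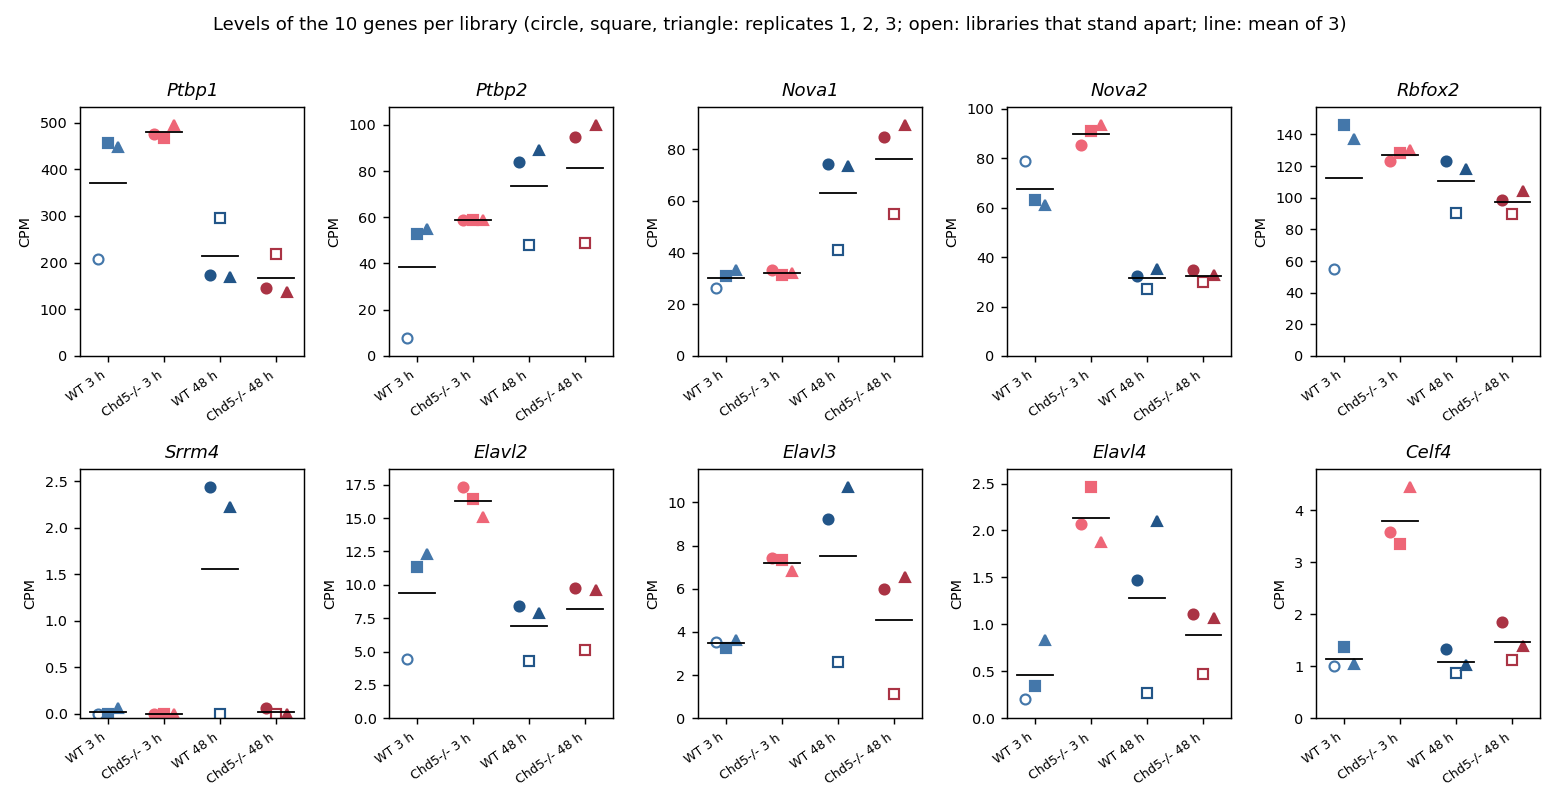
CPM of each of the 10 genes in each library, with 1 panel per gene and a linear axis that starts at or just below 0. Circles, squares and triangles are replicates 1, 2 and 3, open symbols are the 3 libraries that stand apart and lines are the means of 3. Nova2 sits at 61.0 to 93.4 CPM at 3 h and 27.2 to 35.2 CPM at 48 h, while Srrm4 is above 0.0619 CPM in 2 WT libraries at 48 h alone.

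Ptbp1, the progenitor PTB protein at chr10:79854427-79864771, was at its highest at 3 h and lower at 48 h. The level was 207, 456 and 448 CPM in WT at 3 h (replicates 1, 2 and 3) and 476, 467 and 495 CPM in Chd5-/- at 3 h. In the 48 h libraries it stood at 174, 296 and 170 CPM in WT and at 146, 218 and 138 CPM in Chd5-/-. The highest value at 48 h in each genotype is replicate 2, where cycling-cell markers were still high, and the lowest at 3 h is the WT library with the retained-intron reads. Ptbp1 fell from 3 h to 48 h in Chd5-/- cells (log2 fold change -1.52 ± 0.35 SE, adjusted p = 0.0121 in edgeR), and the 2 times did not overlap. Leaving out Chd5-/- 48 h replicate 1 or replicate 3 took the adjusted p in edgeR to 0.0594 and 0.0607, with changes of -1.43 and -1.40, and the length offset took it to 0.0859, at -1.55. In WT the change was -0.80 ± 0.34 with an adjusted p of 0.114 in edgeR. It was -1.12 without WT 3 h replicate 1 (adjusted p = 0.0137), -1.11 without WT 48 h replicate 2 (adjusted p = 0.0443) and -1.44 ± 0.04 without all 3 libraries (adjusted p = 1.76e-12), all in edgeR. In these bulk samples fewer cells of a type and less RNA per cell cannot be told apart. The genotypes differed by 0.37 ± 0.34 at 3 h and -0.35 ± 0.34 at 48 h, neither of which passed. With those 3 left out, the difference at 48 h was -0.26 ± 0.04 (adjusted p = 0.000212 in edgeR).

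Ptbp2, the neural paralogue, was higher at 48 h in the 4 libraries in which cycling markers were low. It stood at 7.90, 52.8 and 54.9 CPM in WT at 3 h and at 58.8, 59.0 and 58.8 CPM in Chd5-/- at 3 h. At 48 h it reached 83.8, 47.9 and 88.9 CPM in WT and 94.9, 48.9 and 99.9 CPM in Chd5-/-. Replicate 2 of both genotypes at 48 h is therefore no higher than the 3 h libraries, other than WT replicate 1 with 78 reads. With all libraries Ptbp2 did not pass over time in WT (0.93 ± 0.57, adjusted p = 0.253 in edgeR) or in Chd5-/- (0.46 ± 0.56, adjusted p = 0.594 in edgeR). When those 3 were left out, it rose by 0.63 ± 0.05 in WT (adjusted p = 3.94e-08) and by 0.69 ± 0.04 in Chd5-/- (adjusted p = 3.86e-09), both in edgeR. Between genotypes Ptbp2 differed by 0.61 ± 0.57 at 3 h (adjusted p = 0.547) and 0.14 ± 0.56 at 48 h (adjusted p = 1.0) with all libraries in edgeR. The fit without the 3 libraries gave 0.13 ± 0.04 at 3 h (adjusted p = 0.0285) and 0.19 ± 0.04 at 48 h (adjusted p = 0.00377), and an interaction of 0.06 ± 0.06 that did not pass.

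The ratio of the 2 PTB mRNAs within a library does not depend on library scaling, and it was higher at 48 h in both genotypes. The log2 ratio of Ptbp2 to Ptbp1 reads was -4.71, -3.11 and -3.03 in WT at 3 h and -3.02, -2.98 and -3.08 in Chd5-/- at 3 h. At 48 h the values were -1.05, -2.63 and -0.93 in WT and -0.62, -2.16 and -0.47 in Chd5-/-. All 6 libraries at 48 h lie above all 6 at 3 h, a mean difference of 2.01 (-1.31 ± 0.88 against -3.32 ± 0.68, SD, n = 6 each; two-sided exact permutation p = 0.00216, the smallest that these numbers allow). Without the 3 libraries the difference was 2.27, also at the smallest exact p of 0.00794. With all libraries it was 1.85 with TPM in place of reads and 1.46 with protein-coding transcripts alone. Each had an exact permutation p of 0.00649, above the smallest possible, so the 2 times overlapped in these measures. The ratio at 48 h was lowest in the replicate 2 libraries, whose cycling-cell markers summed to 1880 and 1730 CPM, and the part of cycling cells in the ratio was not tested. Chd5-/- and WT differed in the ratio by 0.59 at 3 h (exact permutation p = 0.2) and 0.46 at 48 h (exact permutation p = 0.5), where 3 against 3 cannot go below 0.1. Paired by replicate number at 48 h, Chd5-/- was higher in 3 of 3 pairs, at an exact permutation p of 0.25, the smallest that 3 pairs allow. The 3 h difference was 0.04 without WT replicate 1, and it turned to -0.22 with TPM in place of reads and to -0.40 with protein-coding transcripts alone.

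**Figure D2:**
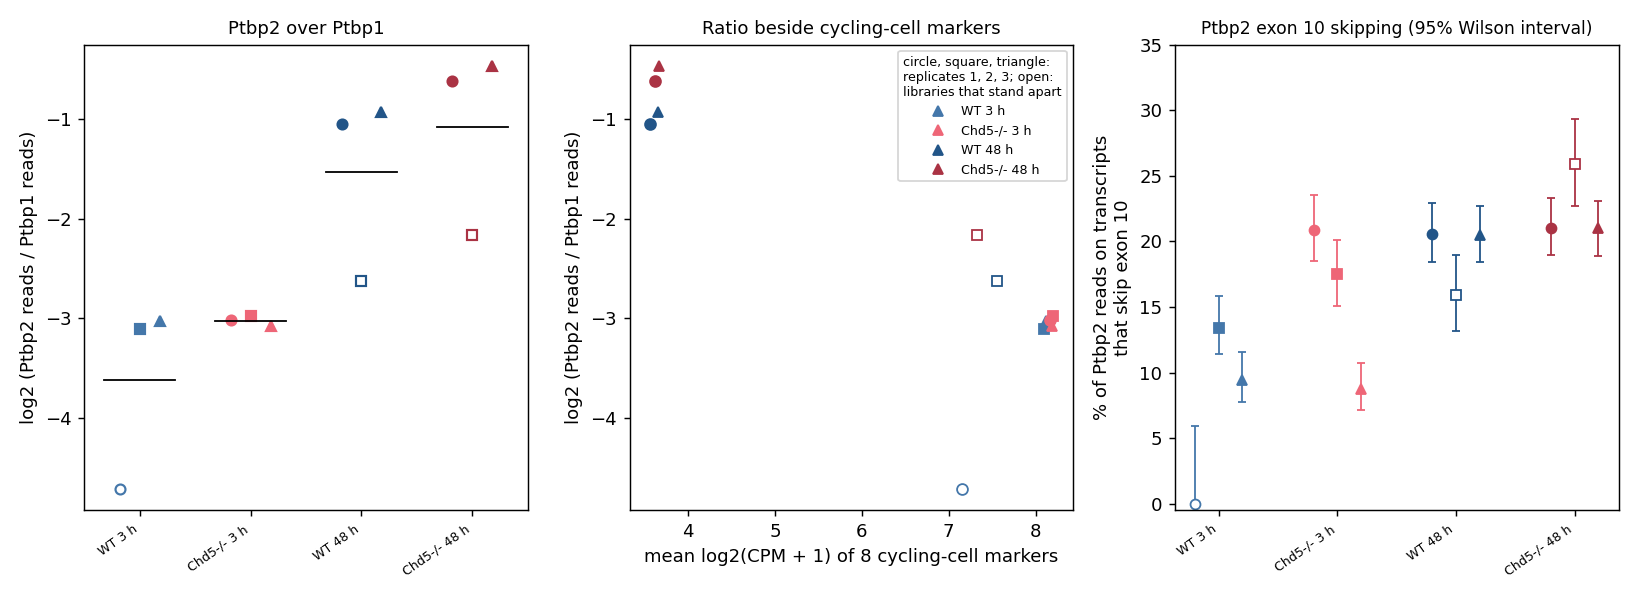
Left, the log2 ratio of Ptbp2 to Ptbp1 reads per library, with group means as lines; middle, the same ratio against the mean log2(CPM + 1) of 8 cycling-cell markers; right, the percentage of Ptbp2 reads on transcripts that skip exon 10, among transcripts that hold or skip it, with 95% Wilson intervals. Open symbols are the libraries that stand apart. The 4 filled 48 h libraries lie between -1.05 and -0.47 in the ratio, and the 2 open ones at -2.63 and -2.16.

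Most Ptbp2 reads were assigned to the full-length coding transcript at both times, with a larger noncoding share at 48 h. Ptbp2-201 held 755 and 806 reads in WT 3 h replicates 2 and 3, 697 to 847 in Chd5-/- at 3 h, 933, 479 and 1065 in WT at 48 h, and 1023, 479 and 1069 in Chd5-/- at 48 h. The replicate 2 libraries at 48 h are thus below these 3 h libraries. Ptbp2-206, a 576-base fragment that skips exon 10 and starts 75 bases before the skip, held 73.5 and 86.6 reads in those WT 3 h libraries and 202, 93.9 and 237 in WT at 48 h. In Chd5-/- it held 75.9 to 93.5 reads at 3 h and 202, 84.4 and 225 at 48 h. Ptbp2-208, the longer skipped transcript, held 0, 46.4 and 0 reads in WT and 117, 78.2 and 0 in Chd5-/- at 3 h. At 48 h it held 49.8, 0 and 50.8 in WT and 88.1, 87.8 and 72.0 in Chd5-/-. Ptbp2-206 thus had more reads in each 48 h library with low cycling markers than in any 3 h library.

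The share of Ptbp2 reads on all noncoding transcripts was 0%, 14.5% and 13.8% in WT at 3 h and 21.3%, 19.0% and 12.3% in Chd5-/- at 3 h. At 48 h the values were 25.0%, 23.8% and 24.9% in WT and 25.6%, 29.8% and 26.5% in Chd5-/-. The 0% in WT replicate 1 rests on 78 reads, which allow a share of up to 3.85%. Every 48 h library lies above every 3 h library, by 12.5 percentage points on average (25.9% ± 2.11 against 13.5% ± 7.42, SD, n = 6 each; two-sided exact permutation p = 0.00216, the smallest possible). With those 3 left out, the difference was 9.34 points (exact permutation p = 0.0159). Genotypes differed by 8.07 points at 3 h (exact permutation p = 0.3) and by 2.73 points at 48 h (exact permutation p = 0.1, the smallest that 3 against 3 allows). Without the 3 libraries these differences were 3.36 and 1.06 points (exact permutation p = 0.4 and 0.333). With TPM in place of reads and all libraries they were 13.0 and 0.233 points (exact permutation p = 0.7 and 0.9).

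Counted only among transcripts that hold or skip exon 10, the skipped share was 0%, 13.4% and 9.45% in WT at 3 h and 20.9%, 17.5% and 8.71% in Chd5-/- at 3 h. At 48 h it was 20.6%, 15.9% and 20.5% in WT and 21.0%, 25.9% and 21.0% in Chd5-/-. Here the times overlap: Chd5-/- replicate 1 at 3 h matches the 48 h libraries, and WT replicate 2 at 48 h lies below it. The difference of 9.14 points (exact permutation p = 0.0195) became 6.78 points with an exact permutation p of 0.0714 without the 3 libraries, which no longer passes. The part of Ptbp1 in the skipped share was not tested. The shares are Salmon's division of reads among overlapping transcripts and not counts of junction reads, and the 95% Wilson intervals, 18.4% to 22.9% for WT 48 h replicate 1 for example, cover counting error only.

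In edgeR on 51037 transcripts, 0 of the 8 Ptbp2 transcripts tested passed in any of the 5 comparisons, where 2.96% of all transcripts passed over time in WT, 1.67% over time in Chd5-/-, 0.378% between genotypes at 3 h, 0.0451% at 48 h and 0.0176% in the interaction. When those 3 were left out, 4 passed over time in each genotype, where 29.3% and 32.8% of all transcripts passed in WT and in Chd5-/-, and all 4 were higher at 48 h: Ptbp2-201, Ptbp2-205, Ptbp2-206 and Ptbp2-207. In that fit Ptbp2-206 rose by 1.38 ± 0.16 in WT (adjusted p = 0.000898) and 1.31 ± 0.14 in Chd5-/- (adjusted p = 0.00053). Ptbp2-201 rose by 0.29 ± 0.08 in WT (adjusted p = 0.0377) and 0.43 ± 0.07 in Chd5-/- (adjusted p = 0.0041). Between genotypes 0 of 8 passed in that fit at 3 h and at 48 h, where 9.43% and 6.54% of all transcripts passed, and 0 in the interaction, where 5.24% did.

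The 2 NOVA genes changed in opposite directions over time, and did so in both genotypes. Nova1, at chr12:46694517-46818929, stood at 26.4, 30.8 and 33.1 CPM in WT and 33.1, 31.2 and 32.0 CPM in Chd5-/- at 3 h. The later libraries gave 74.3, 41.1 and 73.5 CPM in WT and 84.7, 54.8 and 89.3 CPM in Chd5-/-. Every 48 h library is above every 3 h library, and the replicate 2 libraries are again the lowest at 48 h. Nova1 rose by 1.06 ± 0.27 in WT (adjusted p = 0.0214) and by 1.25 ± 0.27 in Chd5-/- (adjusted p = 0.00958) in edgeR. Nova2, at chr7:18925888-18965319 with 1 annotated transcript, stood at 78.9, 63.0 and 61.0 CPM in WT and 85.4, 90.9 and 93.4 CPM in Chd5-/- at 3 h. Values at 48 h were 32.5, 27.2 and 35.2 CPM in WT and 34.9, 29.9 and 32.7 CPM in Chd5-/-. It fell by 1.10 ± 0.19 in WT (adjusted p = 0.00533) and by 1.47 ± 0.19 in Chd5-/- (adjusted p = 0.00096) in edgeR, and again the times did not overlap. The Nova1 rise in WT had adjusted p-values of 0.0837 and 0.0824 without WT 48 h replicate 1 or replicate 3 in edgeR, at 0.93 and 0.94. The other 3 NOVA changes passed with any 1 library left out.

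Between genotypes at 3 h, Nova2 was higher in all 3 Chd5-/- libraries than in all 3 WT libraries, by 0.41 ± 0.19, which did not pass (adjusted p = 0.218 in edgeR). Without WT 3 h replicate 1 alone it was higher by 0.54 (adjusted p = 0.0254 in edgeR), without the 3 libraries by 0.54 ± 0.05 (adjusted p = 1e-06 in edgeR), and at 48 h the same fit gave 0.01 ± 0.07. The interaction of Nova2 was then -0.53 ± 0.08 (adjusted p = 0.000284 in edgeR) and that of Nova1 0.24 ± 0.07 (adjusted p = 0.0166 in edgeR). With all 12 libraries neither interaction passed (-0.37 ± 0.27 and 0.19 ± 0.38).

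Rbfox2, at chr15:77078990-77307004, is the RBFOX gene that is also widely expressed outside neurons, and its level varied little between groups. It stood at 55.2, 146 and 137 CPM in WT and 123, 128 and 130 CPM in Chd5-/- at 3 h. At 48 h the level was 123, 90.2 and 118 CPM in WT and 98.6, 89.8 and 104 CPM in Chd5-/-. Apart from WT 3 h replicate 1, all values lie between 89.8 and 146 CPM. With all 12 libraries Rbfox2 passed in none of the 5 comparisons in edgeR. Leaving out WT 3 h replicate 1 alone, it was lower at 48 h in WT (-0.40, adjusted p = 0.0479) and in Chd5-/- (-0.42, adjusted p = 0.0201) in edgeR. Its difference between genotypes at 3 h was 0.17 ± 0.32 with all 12 libraries and turned to -0.15 ± 0.04 without the 3 libraries (adjusted p = 0.00616 in edgeR). In that fit it was lower at 48 h in WT by 0.28 ± 0.04 on the log2 scale and in Chd5-/- by 0.36 ± 0.04, and both passed.

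Srrm4, at chr5:116439275-116591817, had reads in WT at 48 h and almost nowhere else. It held 40, 0 and 39 reads in the 3 WT libraries at 48 h, 1, 0 and 0 in Chd5-/- at 48 h, 0, 0 and 1 in WT at 3 h, and 0 in all 3 of Chd5-/- at 3 h. The WT library without Srrm4 reads is replicate 2, and so WT and Chd5-/- overlap at 0. The 79 reads of WT against 1 read of Chd5-/- at 48 h amount to a ratio of 72.9 in CPM, with a 95% interval of 13.1 to 2880 from the exact Poisson interval of the 1 read, which covers counting error only. With no filter on low counts, edgeR gave the genotype difference at 48 h an adjusted p of 0.0807 and the WT difference over time 0.026. With those 3 left out, the genotype difference at 48 h had an adjusted p of 7.57e-05 in edgeR. Over the 12 settings in which Srrm4 could be tested, that adjusted p ran from 7.57e-05 to 0.392, and it passed in 2, both of which leave out WT replicate 2. Rbfox3, an RBFOX gene known as NeuN and a marker of mature neurons, stood at 2.32, 0 and 2.22 CPM in WT and 0.31, 0.134 and 0.883 CPM in Chd5-/- at 48 h. Other neuronal markers went both ways at that time. Dcx was at 7.08, 0.337 and 7.61 CPM in WT and 15.8, 0.134 and 16.5 CPM in Chd5-/-. Map2 was at 668, 533 and 693 CPM against 1090, 702 and 1120 CPM. Tubb3 was at 118, 7.62 and 121 CPM in WT and 81.2, 16.0 and 79.9 CPM in Chd5-/-. Gap43 was at 3.66, 20.4 and 2.84 CPM against 0, 0.401 and 0.126 CPM. Stmn2 was at 1.22, 0 and 1.48 CPM in WT and at 0 in each Chd5-/- library, the same libraries with and without reads as Srrm4 in WT. Syt1 was at 1.4, 0.944 and 0.909 CPM against 0.929, 0.267 and 0.694 CPM, and Snap25 at 0.366, 0 and 1.25 CPM against 0.557, 0 and 0.442 CPM. The mean log2(CPM + 1) over 8 neuronal markers was 3.27, 2.25 and 3.31 in WT and 2.81, 1.84 and 2.87 in Chd5-/-. The part of neuron number in the Srrm4 difference was not tested.

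In each of the 3 neuronal ELAV genes, all Chd5-/- libraries lay above all WT libraries at 3 h. Of all tested genes, 23.9% were higher without overlap in that comparison. With all 12 libraries none of the 3 differences passed in edgeR, and without the 3 libraries that stand apart each did. Elavl3 also passed in edgeR fitted to the 3 h groups alone with no library left out, where 991 of 14655 genes passed. Elavl2, at chr4:91250763-91400785, stood at 4.46, 11.3 and 12.3 CPM in WT and 17.3, 16.4 and 15.1 CPM in Chd5-/- at 3 h. In the 48 h libraries it stood at 8.43, 4.32 and 7.90 CPM in WT and 9.78, 5.14 and 9.59 CPM in Chd5-/-. The 3 h groups do not overlap, and every Chd5-/- value at 48 h lies below every one at 3 h. The genotype difference at 3 h was 0.79 ± 0.41 (adjusted p = 0.268) with all libraries and 0.46 ± 0.09 (adjusted p = 0.000562) without the 3, both in edgeR. Over time Elavl2 did not pass with all libraries, was lower in Chd5-/- without WT 3 h replicate 1 alone (-1.03, adjusted p = 0.0188 in edgeR), and was lower in both genotypes without the 3, at -0.58 ± 0.10 in WT and -0.79 ± 0.09 in Chd5-/-.

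Elavl3, at chr9:22015005-22052023, had a genotype difference of opposite sign at the 2 times. It stood at 3.54, 3.25 and 3.61 CPM in WT and 7.43, 7.32 and 6.83 CPM in Chd5-/- at 3 h. The later libraries gave 9.22, 2.63 and 10.7 CPM in WT and 6.01, 1.13 and 6.56 CPM in Chd5-/-. In both genotypes replicate 2 lies far below the other 2 libraries at 48 h. With all libraries the difference was 1.05 ± 0.60 at 3 h (adjusted p = 0.316), -0.72 ± 0.60 at 48 h (adjusted p = 0.845), and -1.77 ± 0.85 for the interaction (adjusted p = 0.513) in edgeR. When those 3 were left out, it was 1.07 ± 0.13 at 3 h (adjusted p = 1.45e-05), -0.65 ± 0.13 at 48 h (adjusted p = 0.000946) and -1.72 ± 0.18 for the interaction (adjusted p = 8.48e-06) in edgeR. That interaction came from a rise of 1.49 ± 0.14 in WT (adjusted p = 3.56e-07), beside -0.23 ± 0.12 in Chd5-/- (adjusted p = 0.0966). With all libraries the changes over time were 1.12 ± 0.61 in WT (adjusted p = 0.199) and -0.65 ± 0.60 in Chd5-/- (adjusted p = 0.471) in edgeR.

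Elavl4, at chr4:110203722-110351909, had the fewest reads of the 3. It held 2, 6 and 15 reads in WT and 37, 39 and 33 in Chd5-/- at 3 h, which is 0.203, 0.342 and 0.832 against 2.07, 2.46 and 1.88 CPM. At 48 h it held 24, 4 and 37 reads in WT and 18, 7 and 17 in Chd5-/-. The difference at 3 h was 2.15 ± 0.70 (adjusted p = 0.1) with all libraries and 1.84 ± 0.36 (adjusted p = 0.000691) without the 3, and the interaction -2.68 ± 0.96 (adjusted p = 0.38) and -2.54 ± 0.51 (adjusted p = 0.00137), all in edgeR. Leaving out WT 48 h replicate 2 alone, the 3 h difference was 2.14 (adjusted p = 0.0314) and the WT difference over time 1.88 (adjusted p = 0.0324) in edgeR, and DESeq2 on all libraries gave 2.13 (adjusted p = 0.0358). The neuronal marker list (8 genes) summed to 308 to 700 CPM in WT and 1190 to 1300 CPM in Chd5-/- at 3 h, a difference carried by Map2 (114 to 490 against 1090 to 1210 CPM). The mean log2(CPM + 1) over the same 8 genes was lower in Chd5-/- (2.28 to 2.32) than in WT (2.71 to 3.00), so the list gives no single direction. Tubb3 was at 119 to 157 CPM in WT and 89.9 to 98.4 CPM in Chd5-/-. Of the other neuronal markers at 3 h, Dcx was at 0 to 0.832 CPM and Stmn2, Snap25 and Syt1 at 0 to 0.405 CPM in all 6 libraries, while Gap43 was at 58.5 to 74.0 CPM in WT and 0.171 to 0.505 CPM in Chd5-/-. The part of neuron number in the ELAV differences was not tested.

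Celf4, at chr18:25477632-25754157, was the 1 member that passed between genotypes in the edgeR fit to all 12 libraries. It stood at 1.01, 1.37 and 1.05 CPM in WT and 3.58, 3.35 and 4.44 CPM in Chd5-/- at 3 h, or 10, 24 and 19 against 64, 53 and 78 reads. Values at 48 h were 1.34, 0.877 and 1.02 CPM in WT and 1.86, 1.13 and 1.39 CPM in Chd5-/-. The 3 Chd5-/- libraries at 3 h are thus above all 9 others. They are also the 3 with high Acta2, at 566 to 598 CPM, whose part was not tested. Of the other fibroblast and smooth muscle markers, Tagln was also higher there than in WT at 3 h (5.86 to 6.48 against 0.166 to 0.81 CPM). Col1a1 (0.379 to 1.06 against 1.99 to 2.55 CPM) and Col3a1 (0 to 0.279 against 3.04 to 8.66 CPM) were lower. Celf4 was higher in Chd5-/- at 3 h by 1.71 ± 0.33 (adjusted p = 0.0122 in edgeR; 9.26e-05 to 0.173 over the alternatives) and fell from 3 h to 48 h in Chd5-/- by 1.37 ± 0.33 (adjusted p = 0.0142 in edgeR). Without Chd5-/- 3 h replicate 3 these had adjusted p-values of 0.0701 and 0.0682 in edgeR, at 1.59 and -1.25, and without Chd5-/- 48 h replicate 3 the second had 0.0644, at -1.34. In WT Celf4 differed by -0.09 ± 0.34 over time. The interaction was -1.28 ± 0.47 (adjusted p = 0.391) with all libraries and -1.17 ± 0.39 (adjusted p = 0.0307) without the 3, both in edgeR.

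**Figure D3:**
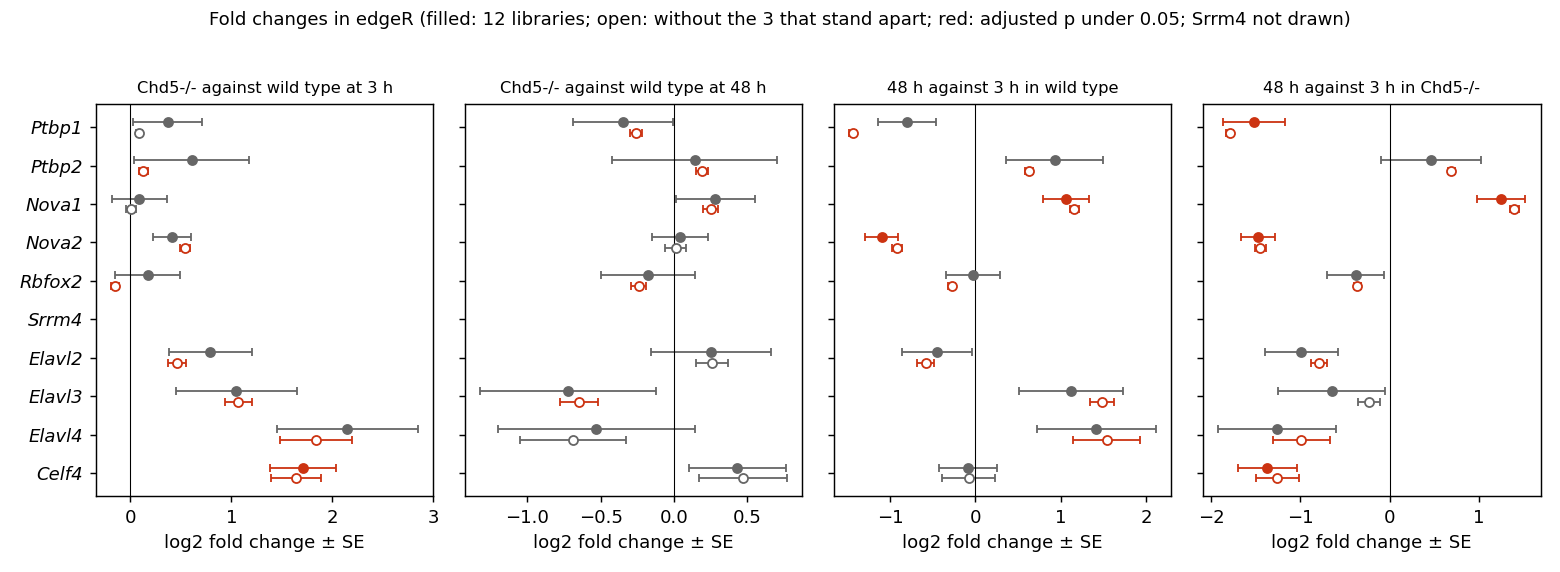
Log2 fold changes with their SE from edgeR for 9 of the genes in 4 comparisons, each panel with its own linear axis. Filled symbols use 12 libraries, open symbols leave out the 3 that stand apart, and red marks an adjusted p under 0.05. Celf4 is the 1 gene in red with all libraries between genotypes, at 1.71, and most open symbols are red with short bars.

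Counted without a test, 7 of the 9 tested members had all Chd5-/- libraries above all WT libraries at 3 h and 0 had them below, where 23.9% of all tested genes were higher without overlap and 45.0% did not overlap in either direction. The 2 that overlapped were Nova1 and Rbfox2. At 48 h all 9 overlapped, with 23.2% of all genes not overlapping. Over time in WT, 1 was higher and 1 lower, with 37.7% of all genes not overlapping. Over time in Chd5-/-, Nova1 was higher and 7 were lower, with 64.6% not overlapping and 32.4% lower. The comparisons share groups, so their counts are not independent of each other.

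Per length, the 10 genes covered a wide range of levels. In TPM (the TPM unit takes out transcript length and library size), Ptbp1 ranged from 180 to 513 in the libraries other than WT 3 h replicate 1, where it was 20.5. Leaving that library out, Ptbp2 was at 22.4 to 30.8 TPM at 3 h and 30.1 to 82.3 TPM at 48 h. Rbfox2, at 24.0 to 34.4 TPM at 3 h, did not separate from Ptbp2 there, and at 17.8 to 26.0 TPM it lay below Ptbp2 at 48 h. Nova1 stood at 9.16 to 10.1 TPM at 3 h and 13.0 to 33.2 TPM at 48 h, where it overlapped Rbfox2. Elavl2 (2.06 to 9.87 TPM) and Nova2 (2.19 to 6.73 TPM) overlapped, as did Elavl3 (0.451 to 4.56 TPM), Elavl4 (0.0707 to 1.93 TPM) and Celf4 (0.166 to 2.25 TPM). Srrm4 was at most 0.296 TPM.

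**Figure D4:**
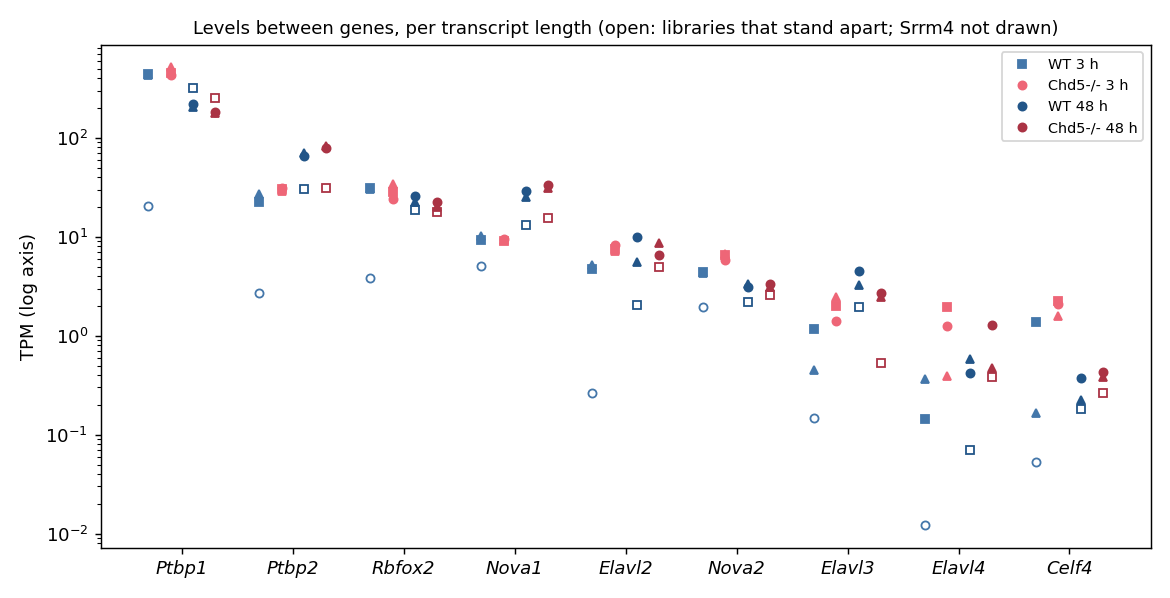
TPM on a log axis for 9 of the genes, ordered by their median without the 3 libraries that stand apart, which are drawn open. Ptbp1 lies at 180 to 513 TPM in all libraries but WT 3 h replicate 1, at 20.5, and Srrm4 is left out because it is at 0 in most libraries.

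The other splicing genes, like all tested genes, passed more often over time than between genotypes. Among 10 genes of the same families, 9 were tested and none passed between genotypes or over time in WT with all 12 libraries. Of all genes, 6.71% passed between genotypes at 3 h, 2.74% at 48 h and 22.9% over time in WT. Without the 3 libraries that stand apart, 2 of 9 were higher and 4 lower in Chd5-/- at 3 h, and 1 higher and 5 lower at 48 h. In that fit 52.5% and 47.2% of all genes passed. Celf2 differed there by -1.45 ± 0.04 at 3 h and -1.19 ± 0.05 at 48 h. In Chd5-/- over time with all 12 libraries 1 rose, the Srrm4 paralogue Srrm3 (0, 0.126 and 0 CPM at 3 h, 1.18, 0.2 and 0.883 CPM at 48 h, adjusted p = 0.0245 in edgeR), and 1 fell, Celf6 (-3.73 ± 1.07, adjusted p = 0.0307 in edgeR). Of all genes, 22.1% passed in that comparison. Of 26 other regulators of alternative splicing, 23 were tested. In WT over time 0 rose and 3 fell, Tra2b, Hnrnpa1 and Raver1, where 12.7% of all genes rose and 10.1% fell. In Chd5-/- 2 of 23 rose and 9 fell, where 14.1% of all genes rose and 8.03% fell. Tra2b, an SR-like activator of exons, fell by 1.25 ± 0.24 in WT (adjusted p = 0.00726) and 1.77 ± 0.24 in Chd5-/- (adjusted p = 0.0012) in edgeR. Raver2, which encodes a PTB-binding cofactor, rose by 3.98 ± 0.58 in Chd5-/- (adjusted p = 0.00141 in edgeR), from 0.626 to 0.838 CPM at 3 h to 6.68 to 14.9 CPM at 48 h. Between genotypes at 3 h 1 of 23 passed with all 12 libraries, where 6.71% of all genes passed, and at 48 h none did. The 1 was Rbm4, at 23.9, 30.1 and 30.3 CPM in WT and 56.9, 61.2 and 56.5 CPM in Chd5-/- (1.05 ± 0.18, adjusted p = 0.00633 in edgeR). Without the 3 libraries, of 24 tested, 11 were higher and 7 lower in Chd5-/- at 3 h, and 9 higher and 5 lower at 48 h.

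Of 19 SR proteins and core spliceosome genes, all tested, 2 rose and 4 fell over time in WT and 0 rose and 5 fell in Chd5-/-, beside 22.9% and 22.1% of all genes that passed. Srsf3, a shuttling SR protein, fell by 1.10 ± 0.19 in WT (adjusted p = 0.00472) and by 1.02 ± 0.19 in Chd5-/- (adjusted p = 0.00423) in edgeR. None of the 19 passed between genotypes with all 12 libraries. Without the 3 that stand apart, 9 were higher and 4 lower in Chd5-/- at 3 h, and 5 higher and 6 lower at 48 h. Among 8 regulators of the 10 genes, 6 were tested and 1 passed with all 12 libraries, over time in both genotypes, where 22.9% and 22.1% of all genes passed. Mir9-3hg, the host transcript of a miR-9 gene, rose by 3.62 ± 0.70 in WT (adjusted p = 0.00719) and 2.66 ± 0.66 in Chd5-/- (adjusted p = 0.0167) in edgeR. It reached 60.2, 9.44 and 59.9 CPM in WT and 55.9, 15.6 and 55.3 CPM in Chd5-/- at 48 h, with replicate 2 again the lowest. Rest, whose protein represses neuronal genes outside neurons, did not pass in any comparison with all libraries and stood at 26.5 to 48.5 CPM outside WT 3 h replicate 1. The 2 host transcripts of miR-124, the microRNA that targets Ptbp1, were at most 0.31 CPM and were not tested.

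Over the 12 libraries the 3 genes most like Ptbp1 in log2(CPM + 1), members left out, were Prep (Pearson r = 0.992), Iqgap1 (0.986) and Fam185a (0.982). For Ptbp2 they included Synj1 (0.997) and Cpeb4 (0.996), and for Elavl3 they were Pou2f2 (0.955), Map3k9 (0.955) and Ctr9 (0.938). Among the members, Ptbp1 and Nova1 had r = -0.84 and Elavl3 and Elavl4 r = 0.82. These are descriptions across libraries that share groups and the 3 libraries that stand apart.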

How the data were processed

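Each library has 1 deposited table. The submitters' processing notes name Salmon; its version, settings and index were not given in these sources. Per the file headers, the authors' tables hold estimated counts (NumReads) and TPM for 140658 transcripts. Of these, 140137 matched GENCODE M21 (GRCm38) by name, and the other 521 (0.135% to 0.181% of reads) were left out. Sequences and positions come from GENCODE M21. The deposited estimated counts were summed per gene and rounded.

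Tests used edgeR 4.0.16 under R 4.3.3: filterByExpr (minimum count 10), TMM factors, 1 mean per group and two-sided quasi-likelihood F tests. CPM uses TMM-scaled library sizes, and SE is the log2 fold change over the square root of F. A check on counts simulated with the same spread for every gene recovered most of the changed genes. It held no libraries that stand apart, so it does not show how many changes are recovered in these data. DESeq2 1.42.0, RLE factors, other filters, a length offset, replicate blocks and each library left out were the alternatives. Exact permutation tests compared the Ptbp2 values over libraries.

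The fold changes and adjusted p-values of the members come from fits without pairing, and replicate numbers entered as a block only among the alternatives. At 48 h same-numbered deviations correlated at 0.56, 0.74 and 0.56 between genotypes. Replicates 1 and 3 correlated with each other as highly (0.58 and 0.60), so the numbers there set replicate 2 apart in both genotypes and do not tell replicates 1 and 3 apart. At 3 h they correlated at 0.15, 0.08 and 0.05. With the block and only the 48 h groups, 1330 genes and 0 members passed, against 440 and 0.

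The named genes are all 10 members, up to 4 passing genes per context list by smallest p, and the 3 genes most like Ptbp1, Ptbp2 and Elavl3, of which 1 is not reported here. Rbfox3, the marker genes and single transcripts were named after their values were seen. Members and lists were chosen with earlier results of these data known. The labelled alleles were not checked beyond the level of Chd5.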

Additional observations from a re-analysis of the deposited data

How the results depend on the processing

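The 5 comparisons were refitted under 21 alternatives, and 851 of 927 alternative values for single genes kept their direction and side of the threshold, with 40 that newly passed, 16 that no longer passed and 20 that changed sign. DESeq2 called 2 members and 2091 genes between genotypes at 3 h, 920 genes at 48 h and 385 in the interaction. With the length offset, 0 members and 718 genes passed at 3 h, 1 member and 2830 genes over time in WT, and 266 genes at 48 h between genotypes. Only the groups compared gave 2 members at 3 h (Celf4 and Elavl3), 263 genes at 48 h, 0 members and 0 genes over time in WT (3649 genes at an unadjusted p under 0.05 in edgeR), and 7 members and 7836 genes over time in Chd5-/-.

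Same-numbered libraries correlated at between -0.01 and 0.15 outside the 48 h genotype comparison, and the replicate block is given for them as a setting only. The replicate block gave 18 genes in the interaction, and with only the groups compared 0 members and 0 genes at 3 h (2401 genes at an unadjusted p under 0.05 in edgeR), 1330 genes at 48 h, 0 members and 0 genes over time in WT (2599 genes), and 6214 genes over time in Chd5-/-. Paired by number, the time difference in the Ptbp2 to Ptbp1 ratio had an exact permutation p of 0.0312.

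Without the 3 libraries that stand apart, chosen once the values were known, 7, 6, 9, 8 and 6 members and 8659, 7791, 12539, 13029 and 6669 genes passed (genotype at 3 h and 48 h, time in WT and Chd5-/-, interaction), with 4 Ptbp2 transcripts over time in each genotype. The exon 10 skipped share then differed by 6.78 points. The Ptbp2 to Ptbp1 ratio between genotypes at 3 h was -0.22 with TPM and -0.40 with coding transcripts.

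With 1 library left out, the number of genes ranged from 419 to 1636 (genotype, 3 h), 184 to 1454 (48 h), 1464 to 5419 (time, WT), 1708 to 7280 (time, Chd5-/-) and 15 to 310 (interaction), and members from 0 to 2, 0 to 1, 1 to 5, 2 to 6 and 0 to 0. The ratio between genotypes at 48 h ranged from -0.09 to 0.99.

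Changes of sign, none of them in a difference that passed with all 12 libraries, were -0.33 for Nova1 at 3 h, 0.96 for Elavl4 at 48 h and 0.31 for Elavl2 over time in WT, all with the length offset. Rbfox2 at 3 h was -0.15 without the 3 libraries, and over time in WT 0.01 with the replicate block and 0.05 with it and only the groups compared. The Ptbp2 interaction was 0.06 without the 3 libraries. With 1 library left out, the difference between genotypes ranged from -0.15 to 0.40 for Rbfox2 at 3 h, and at 48 h from -0.09 to 0.40 for Ptbp2, -0.06 to 0.12 for Nova2 and -1.0 to 0.02 for Elavl4. Over time in WT it ranged from -0.40 to 0.19 for Rbfox2 and -0.27 to 0.06 for Celf4, and in the interaction from -0.81 to 0.02 for Ptbp2 and -0.05 to 0.36 for Nova1. The causes were not tested. Depth limits Srrm4, Elavl4 and Celf4, with 0 to 78 reads per library.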

Other observations

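2 transcripts were picked after their values were seen, and with all 12 libraries neither passed in edgeR. Rbfox2-212, an 899-base coding transcript, held 77.5 and 67.0 reads in WT 3 h replicates 2 and 3 and 72.1, 102 and 67.8 in Chd5-/- at 3 h. It held 0 in WT 3 h replicate 1, 0 in all 3 WT libraries at 48 h, and 0, 0 and 24.3 in Chd5-/- at 48 h, while Rbfox2 as a whole stayed at 89.8 to 123 CPM at 48 h. Elavl4-207 held 26.9, 27.5 and 33.0 reads in Chd5-/- at 3 h and at most 5.70 in any other library. For Rbfox2-212 the adjusted p over time was 0.117 in WT and 0.436 in Chd5-/- in edgeR, and for Elavl4-207 it was 0.513 between genotypes at 3 h. Salmon divides reads among overlapping transcripts, so these are estimates with no count of junction reads behind them.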
